A study of Mus musculus with 30 samples.

Results

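The genes described here are 7 mouse selenoprotein genes whose products reside in the endoplasmic reticulum or are not grouped with the classical selenoenzymes: Sepw1, Sep15, Selk, Selm, Selt, Selo and Sepn1, now named Selenow, Selenof, Selenok, Selenom, Selenot, Selenoo and Selenon. They were chosen by name, through their Ensembl identifiers, and all 7 were found among the 21412 genes of the expression table. RNA was measured by sequencing in the hippocampus of male BALB/c mice in a full factorial design with oral selenium and 2 doses of methylmercury (MeHg), an organic mercury compound that is toxic to the nervous system, and each of the 30 libraries came from 1 RNA sample. The mice of the groups without added selenium were obtained at 2 to 3 weeks of age and fed for 11 weeks on unspiked feed (Ctr), a low dose (LD, 0.28 mg MeHg per kg feed) or a high dose (HD, 5 mg MeHg per kg feed). The groups Se_Ctr, Se_LD and Se_HD are labelled as selenium with no, low or high mercury, the series title names selenium-methionine, and the amount of selenium and the age and feed of these 3 groups are not given in the sources used here. Each group had 5 libraries, and the numbers given to libraries below are those of the sample titles.

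Selenoproteins contain selenocysteine, the amino acid that carries selenium, at a UGA codon that would otherwise end translation. A hairpin in the same mRNA, the SECIS element, recruits the proteins that bring selenocysteine to this codon. Selenoprotein mRNAs differ in how far they follow selenium supply, and a UGA that is read as a stop upstream of an exon junction can mark an mRNA for decay. The brain holds on to selenium when the supply is short, and methylmercury binds selenium tightly.

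The selenocysteine codon is shown for all 7 members because its place and surroundings differ between these mRNAs. The SECIS elements were not examined. The sequences are those of the spliced coding sequence in the NCBIM37 genome with its GENCODE annotation, read 5′ to 3′ on the strand of the gene, with up to 15 bases on each side of the codon and the codon in capitals.
Sepw1: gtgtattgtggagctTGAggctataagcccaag
Sep15: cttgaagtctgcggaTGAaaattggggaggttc
Selk: ccaatggctggtggaTGAggaaggtaa
Selm: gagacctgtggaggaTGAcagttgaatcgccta
Selt: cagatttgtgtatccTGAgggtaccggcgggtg
Selo: gaactctgtgtaacaTGAtcctcataa
Sepn1: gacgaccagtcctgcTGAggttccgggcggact

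In 4 members a cysteine codon stood 3 codons before the selenocysteine codon (Sepw1, Selm, Selt and Selo), the spacing of the redox motif of thioredoxin-like proteins. In Sep15 the cysteine codon stood 2 codons before it, in Sepn1 directly before it, and in Selk none was found within 5 codons. The codon lay near the start of the coding sequence in Sepw1, at codon 13 of 88 in exon 2 of 6 (chr7:16505813-16505815, minus strand). It lay at codon 48 of 145 in Selm (exon 2 of 5, chr11:3416276-3416278, plus strand), at codon 49 of 195 in Selt (exon 2 of 6, chr3:58389160-58389162, plus strand) and at codon 93 of 162 in Sep15 (exon 3 of 5, chr3:144253609-144253611, plus strand). In Sepn1 it was codon 428 of 557 (exon 9 of 12, chr4:134098253-134098255, minus strand). In Selk and Selo it came just before the end, at codon 92 of 94 (exon 4 of 5, chr14:30786626-30786628, plus strand) and at codon 665 of 667 (exon 9 of 9, chr15:88930405-88930407, plus strand). Upstream of the last exon junction the distance was 470 bases in Selt, 243 in Sepw1, 216 in Sepn1, 135 in Selm, 78 in Sep15 and 5 in Selk, whereas in Selo the codon lay in the last exon.

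**Figure D1:**
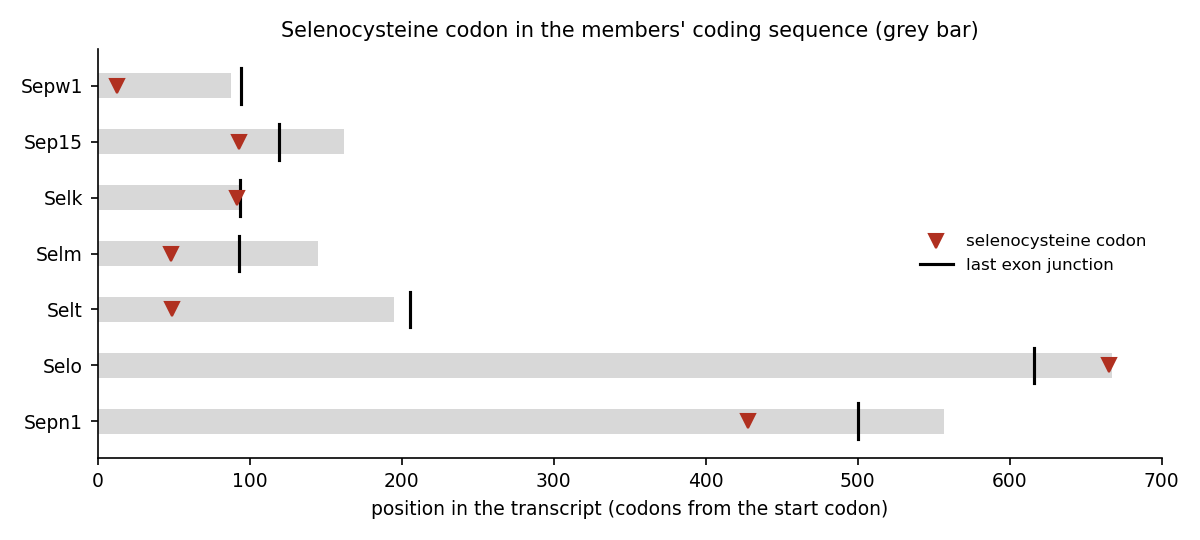
Position of the selenocysteine codon (red triangle) and of the last exon junction (black line) along the transcript, in codons from the start codon, with the coding sequence as a grey bar. The triangle sits near the start in Sepw1 (codon 13 of 88) and at the end in Selk and Selo, and it lies left of the junction in every member but Selo.

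All 7 genes were expressed in every library and all passed the filter on low values, a sum of at least 10 over the libraries of a fit. Values are normalized counts, that is, reads per gene divided by a size factor of the library. Per kb of exon the means over the 30 libraries were 7009 normalized counts for Sepw1, 1095 for Selt, 696 for Selk, 429 for Sep15, 183 for Selm, 48.1 for Sepn1 and 17.6 for Selo. Sepw1, which encodes a small thioredoxin-like protein of the cytosol known from muscle and brain, was thus the most abundant member. By read numbers, Sepw1 had 2924 to 7424 reads per library, whereas Selo, whose product transfers AMP to proteins in mitochondria and is thus an enzyme by present knowledge, had 39 to 104. The SE of the log2 fold change in HD compared with Ctr did not follow these numbers, at 0.17 for both Sepw1 and Selo and 0.20 for Selm.

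Libraries held 5768208 to 11510521 reads on genes, with medians of 9351470 over all 30, 7119788 in Ctr and 10159514 in HD. The 6 markers of hippocampal neurons were all measured, with summed normalized counts of 6747 to 12660 over all libraries. Without another tissue to compare with, this could not test the tissue label. The summed level of 8 choroid plexus markers ranged from 275 to 37600 and spread widely within groups. The 8 microglial markers summed to 2222 to 2443 in Ctr, 2803 to 6227 in HD and 2306 to 2733 in Se_HD. Since the samples are whole tissue, fewer cells of a type and less RNA per cell cannot be told apart.

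Of the 7 members, only Sepw1 was called over the 6 groups in the F test (limma, adjusted p = 0.00121), where 6.91% of all genes had an unadjusted p under 0.05 and 0.444% an adjusted p under 0.05. The adjusted p of the other members lay between 0.926 for Sep15 and 1.00 for Selo, when rounded, and none of them was called. With scores of microglial and astrocyte markers as covariates Sepw1 was not called either (limma, adjusted p = 1.00 when rounded), and with a score of neuronal markers its adjusted p was 0.501 (limma). Group means of Sepw1 spanned from 3257 to 5973 normalized counts, a ratio of 1.83, while the ratio of the highest to the lowest group mean was 1.42 for Selm and 1.09 to 1.16 for the others.

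Sepw1 (ENSMUSG00000041571, chr7:16502557-16507751, minus strand) was low in the hippocampus of HD mice. In Ctr the libraries 1, 7, 13, 19 and 25 had 5844, 5344, 5091, 5297 and 3858 normalized counts, a mean of 5087 ± 740 (SD, n = 5). In HD the libraries 3, 9, 15, 21 and 27 had 3375, 2980, 4564, 2386 and 2980, a mean of 3257 ± 811 (SD, n = 5). Of the 5 HD libraries 4 lay below every Ctr library, and the groups overlapped through HD library 15 and Ctr library 25. Levels fell by 0.66 on the log2 scale (SE 0.17, 95% confidence interval -1.01 to -0.31), a change of -36.8%. The unadjusted p from limma passed the threshold of 0.05 that the study uses, which is what a call means below, the adjusted p over all genes was 0.139, and the exact permutation test of 5 against 5 libraries gave a two-sided p of 0.0159. Sepw1 was the 1 member of 7 called in this comparison, where 8.34% of all genes were called.

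**Figure D2:**
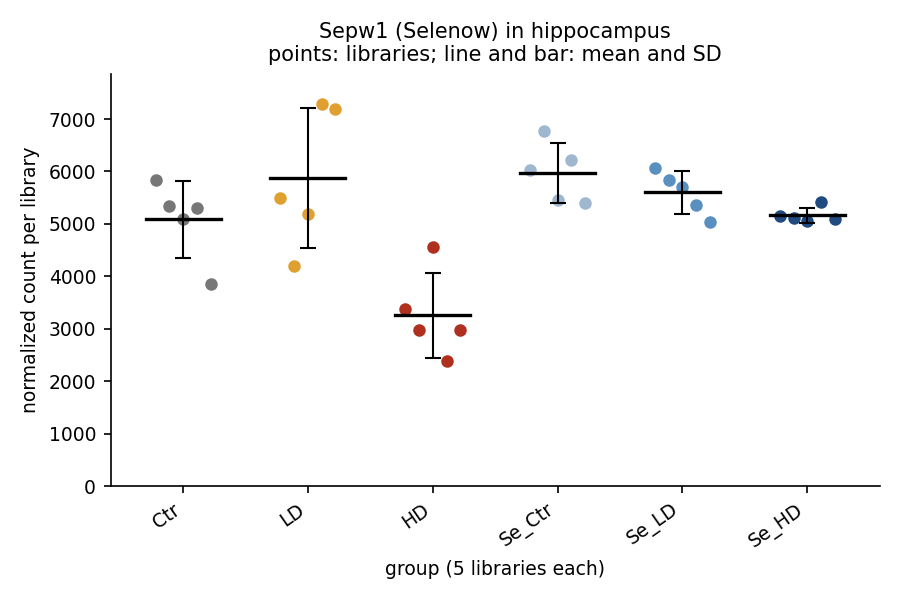
Normalized counts of Sepw1 in each library (points) of the 6 groups, with the mean (line) and SD (bar) of 5 libraries. The HD libraries sit at 2386 to 4564, all below the Se_HD libraries at 5054 to 5423.

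The low dose was without such a fall. The LD libraries 2, 8, 14, 20 and 26 had 5499, 4198, 5183, 7285 and 7196 normalized counts of Sepw1, a mean of 5872 ± 1339 (SD, n = 5). Library 20 and library 26 lay above every Ctr library and the other 3 within the range of Ctr, and the log2 fold change of 0.19 (95% confidence interval -0.16 to 0.54) was not called (limma, adjusted p = 0.999). No member was called in LD compared with Ctr by limma, where 3.01% of all genes were called. Compared with LD, Sepw1 in HD fell by 0.85 on the log2 scale (SE 0.17, limma, adjusted p = 0.0602), with 4 of 5 HD libraries below every LD library. In this comparison 2 of 7 members were called, Sepw1 and Selm, beside 6.96% of all genes.

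At the high dose of mercury, Sepw1 was higher in mice given selenium than in those without, although within the selenium groups it was lowest at that dose. The Se_HD libraries 6, 12, 18, 24 and 30 had 5145, 5108, 5054, 5423 and 5095 normalized counts, a mean of 5165 ± 148 (SD, n = 5). These 5 values spread by a coefficient of variation of 2.86%, whereas that of the 5 HD values was 24.9%. Every Se_HD library lay above every HD library. Sepw1 was 1.62-fold higher in Se_HD than in HD, a log2 fold change of 0.70 (SE 0.13, 95% confidence interval 0.42 to 0.97, limma, adjusted p = 0.0147). The exact permutation p of 0.00794 is the smallest that 5 against 5 libraries can give. The HD libraries are also those compared with Ctr above, so the opposite signs of these comparisons are not independent of each other.

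With Sep15, 2 of 7 members were called in Se_HD compared with HD, where 8.38% of all genes were called. The libraries of the 2 groups did not overlap for 1 of 7 members, Sepw1, and for 1.5% of all genes. Among all genes 70 had an adjusted p under 0.05 in this comparison (0.327%), of which 68 were lower and 2 were higher in Se_HD. Sepw1 was one of the 2, and the other, named after its value was seen, was Gad1, which encodes an enzyme that makes the transmitter GABA. The number of such genes was 0 with only the 2 groups in the fit or with the microglial and astrocyte scores as covariates, 2 with the neuronal score, 27 without the trend of the variance, 167 with edgeR and 225 with DESeq2. The adjusted p of Sepw1 was 0.171 with only the 2 groups in the limma fit, and in limma without HD library 9 or 21 it was 0.0575 and 0.0916.

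At no mercury and at the low dose, limma with all 30 libraries in the fit called no difference in Sepw1 between the diets. The Se_Ctr libraries 4, 10, 16, 22 and 28 had 6021, 6768, 5447, 6224 and 5407 normalized counts, a mean of 5973 ± 569 (SD, n = 5). Of these, 3 lay above every Ctr library, and the log2 fold change against Ctr was 0.24 (95% confidence interval -0.03 to 0.51), with an exact permutation p of 0.0476. No member was called in Se_Ctr compared with Ctr by this fit, where 4% of all genes were called. Sepw1 was called there with only these groups in the limma fit, at 0.24, and without Ctr library 1, at 0.29. Neither had an adjusted p under 0.05. The Se_LD libraries 5, 11, 17, 23 and 29 had 6063, 5828, 5709, 5351 and 5045, a mean of 5599 ± 403 (SD, n = 5), and lay within the range of LD (log2 fold change -0.04, exact permutation p = 0.833). None of the 7 members was called in Se_LD compared with LD, beside 2.86% of all genes.

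Within the selenium groups the mean of Sepw1 was highest in Se_Ctr and lowest in Se_HD. In Se_HD it fell by 0.21 on the log2 scale compared with Se_Ctr (SE 0.07, limma, adjusted p = 1.00 when rounded), with 4 of 5 Se_HD libraries below every Se_Ctr library and an exact permutation p of 0.0159. Sepw1 was the 1 member of 7 called there, beside 4.19% of all genes, and this call was not made when all 30 libraries shared 1 estimate of the spread. None of the members was called in Se_LD compared with Se_Ctr (3.31% of all genes) or in Se_HD compared with Se_LD (4.94% of all genes).

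The fall of Sepw1 at the high dose was smaller with selenium than without. The interaction of selenium and HD was 0.46 on the log2 scale (SE 0.19, 95% confidence interval 0.07 to 0.85, limma, adjusted p = 0.997), and Sepw1 was the 1 member of 7 called, beside 4.77% of all genes. Without HD library 21, which held the lowest value of Sepw1, the interaction was 0.35 and was not called. It was also not called with the microglial and astrocyte scores as covariates, at 0.31 (limma, adjusted p = 0.994), or with the neuronal score, at 0.32 (limma, adjusted p = 0.959). The interaction of selenium and LD was not called for any member, beside 3.75% of all genes.

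With both diets averaged, Sepw1 in HD fell by 0.43 on the log2 scale compared with the groups without mercury (SE 0.10, limma, adjusted p = 0.0398). It was the 1 member of 7 with an adjusted p under 0.05, as were 0.21% of all genes, and the 1 member called at the unadjusted threshold, as were 9.09%. The adjusted p was 0.05 or higher without any one of 14 of the 30 libraries (Ctr 1, 7 and 19, HD 9 and 21, Se_Ctr 4, 10, 16 and 22 and all 5 of Se_HD), with a range of 0.00332 to 0.0885 over the 30. It was 0.0520 with a pseudocount of 10, 0.0657 with the set of library numbers as a covariate, 0.0758 with the choroid plexus score, 0.101 in limma without the trend, 0.510 with the neuronal score and 0.874 with the microglial and astrocyte scores. The same average for LD called no member, beside 2.69% of all genes. Averaged over the 3 doses of mercury, Sepw1 was higher with selenium by 0.30 on the log2 scale (SE 0.08, limma, adjusted p = 0.563), the 1 member of 7 called beside 6.62% of all genes. The single differences in this average were 0.24 at no mercury, -0.04 at the low dose and 0.70 at the high dose.

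In the order of the group means of Sepw1, Se_Ctr was followed by LD, Se_LD, Se_HD, Ctr and HD. Between neighbours in this order the largest difference was that of Ctr and HD, by 1830 normalized counts with an exact permutation p of 0.0159, although their libraries overlapped. For the other 4 pairs of neighbours that p lay between 0.0873 and 0.889.

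Markers of glia moved with the same groups. In HD compared with Ctr all 8 microglial markers rose (4 with an adjusted p under 0.05 in limma), as did 4 of 8 astrocyte markers (1 with an adjusted p under 0.05), while 1 of 8 neuronal markers fell, beside 5.08% of all genes called higher and 3.26% called lower. In Se_HD compared with HD 7 of the 8 microglial and 5 of the 8 astrocyte markers fell, and 1 neuronal marker, Gad1, rose, beside 5.28% of all genes called lower and 3.1% called higher. The astrocyte markers summed to 49390 to 58826 normalized counts in Ctr, 59595 to 92215 in HD and 50394 to 52892 in Se_HD. The mean log2 score of the neuronal markers, set to 0 in Ctr, was -0.14 ± 0.10 (SD, n = 5) in HD, and no marker of these 3 lists was at 0 in every library. The 8 choroid plexus markers all had positive values in HD compared with Ctr, from 0.56 to 1.79 with a median of 1.42 on the log2 scale, of which 1 was called, and in Se_HD compared with HD all 8 were positive with a median of 0.22 and none was called. The 5 erythrocyte markers all had negative values in HD compared with Ctr, with a median of -0.52, and 4 of 5 were negative in Se_HD compared with HD, with a median of -0.40 and no call in either. Markers of oligodendrocytes (6), endothelial cells (6) and hippocampal neurons (6) held no call in these 2 comparisons, with medians from -0.15 to 0.16.

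With the microglial and astrocyte scores as covariates, Sepw1 in HD compared with Ctr had a log2 fold change of -0.46 and was not called (limma, adjusted p = 1.00 when rounded). With the neuronal score as a covariate, an alternative added after the data were seen, that value was -0.37 and was not called (limma, adjusted p = 0.736). In Se_HD compared with HD the call for Sepw1 was kept with either, at 0.54 (limma, adjusted p = 0.976) and 0.53 (limma, adjusted p = 0.388). With the choroid plexus score its value in HD compared with Ctr was -0.64 and was called. The part of these cell types in the result was not tested.

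**Figure D3:**
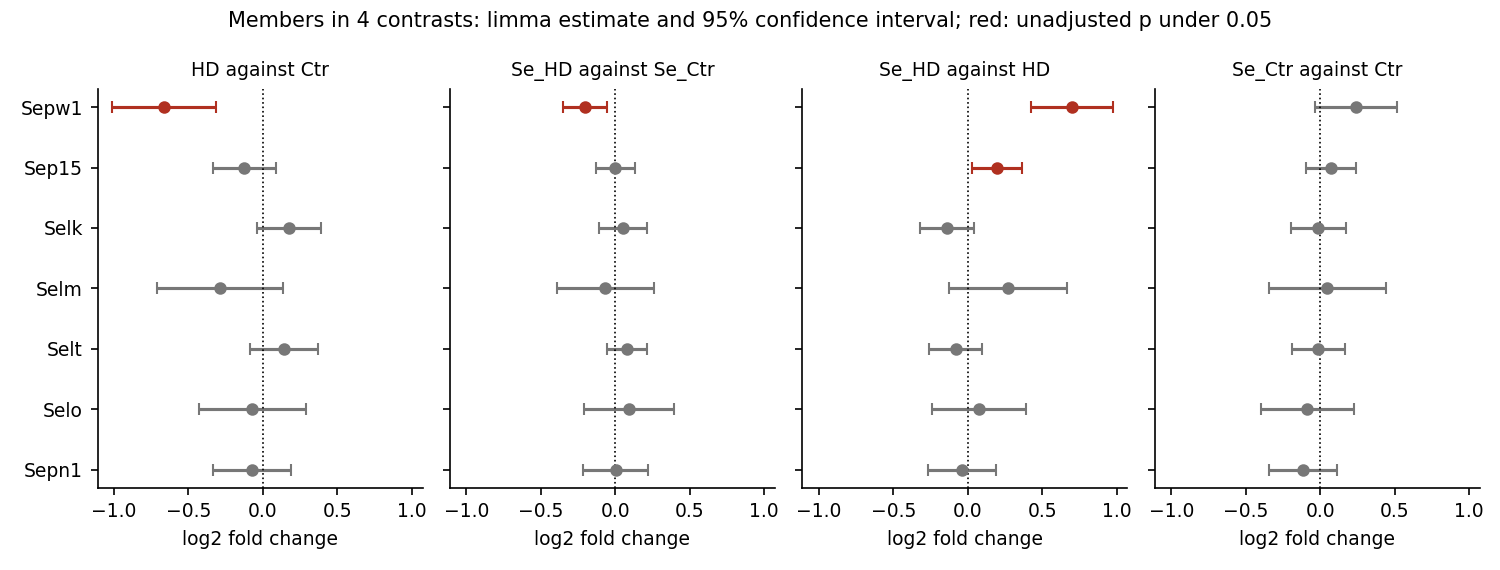
Log2 fold change of the 7 members (points) with the 95% confidence interval (bars) in 4 comparisons, estimated with limma, with red for an unadjusted p under 0.05. Sepw1 lies at -0.66 in HD compared with Ctr and at 0.70 in Se_HD compared with HD, and most other intervals include 0.

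Sep15 and Selm, which encode thioredoxin-like proteins of the endoplasmic reticulum lumen, had lower means in HD than in the other 5 groups. Sep15 (ENSMUSG00000037072, chr3:144233268-144260644, plus strand) binds the glucosyltransferase that checks the folding of glycoproteins. In HD its libraries 3, 9, 15, 21 and 27 had 851, 820, 678, 997 and 768 normalized counts, a mean of 823 ± 117 (SD, n = 5). In Se_HD the libraries 6, 12, 18, 24 and 30 had 913, 986, 962, 841 and 988, a mean of 938 ± 62.3 (SD, n = 5). The groups overlapped through HD library 21, which was above every Se_HD value, and through Se_HD library 24, which was below the second highest HD value.

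Sep15 was higher in Se_HD than in HD by 0.20 on the log2 scale (SE 0.08, limma, adjusted p = 0.498), with an exact permutation p of 0.103. This call was lost with only the 2 groups in the fit, where the log2 fold change was the same. It was also lost on leaving out HD library 15 or 27 or Se_HD library 12 or 30, with log2 fold changes of 0.13 to 0.18. Compared with Ctr, whose mean was 893 ± 77.3 (SD, n = 5), the value in HD was -0.13 on the log2 scale (95% confidence interval -0.34 to 0.09) and was not called. Over all groups the mean level of Sep15 was 893 ± 77.3 in Ctr, 924 ± 76.1 in LD, 823 ± 117 in HD, 937 ± 37.9 in Se_Ctr, 895 ± 59.4 in Se_LD and 938 ± 62.3 in Se_HD (SD, n = 5). With the glial scores as covariates the value in HD compared with Ctr was -0.36 and with the neuronal score -0.29, both called without an adjusted p under 0.05.

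Selm (ENSMUSG00000075702, chr11:3414687-3417354, plus strand), a member of the same family as Sep15 that is abundant in neurons, spread widely within groups, with a coefficient of variation of 29.8% in Ctr. In LD the libraries 2, 8, 14, 20 and 26 had 351, 256, 267, 238 and 460 normalized counts, and in HD the libraries 3, 9, 15, 21 and 27 had 245, 288, 206, 161 and 208. Library 26 stood highest in LD, and the groups overlapped, since HD library 9 exceeded 3 of the 5 LD libraries. In HD compared with LD, Selm fell by 0.49 on the log2 scale (SE 0.20, limma, adjusted p = 0.616), with an exact permutation p of 0.0635. The call was lost without LD library 2 or 26 or HD library 21, with values of -0.43, -0.34 and -0.38. It was also lost with the microglial and astrocyte scores (-0.36), the neuronal score (-0.28) or the choroid plexus score (-0.40) as covariates, and in limma without the trend. Compared with Ctr the difference in HD was -0.29 (95% confidence interval -0.71 to 0.13). The mean level of Selm was 276 ± 82.2 in Ctr, 314 ± 92.1 in LD, 222 ± 47.8 in HD, 279 ± 51.9 in Se_Ctr, 271 ± 63.9 in Se_LD and 265 ± 45.2 in Se_HD (SD, n = 5).

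The members of the endoplasmic reticulum membrane showed no called difference in the main fits. Among the alternatives, Selt was called in Se_HD compared with Se_LD with the choroid plexus score (0.15) or the glial scores (0.16). For HD averaged over the diets it was called with quantile normalization (0.13) or the neuronal score (0.14). None of these had an adjusted p under 0.05, and calls of Selk or Selt on leaving out a library are given below. Selk (ENSMUSG00000042682, chr14:30781494-30788260, plus strand) encodes a small membrane protein that takes part in the removal of misfolded proteins and in calcium flux of immune cells. Its libraries ranged from 699 to 916 normalized counts in Ctr (mean 841 ± 83.6, SD, n = 5) and from 848 to 1088 in HD (mean 949 ± 94.0, SD, n = 5). The log2 fold change was 0.18 (95% confidence interval -0.04 to 0.39, exact permutation p = 0.0952), and Selk had its highest mean in HD. Between Se_HD and HD the difference was -0.14 (exact permutation p = 0.127). For Selk the mean level was 841 ± 83.6 in Ctr, 848 ± 98.9 in LD, 949 ± 94 in HD, 833 ± 80.8 in Se_Ctr, 844 ± 69.6 in Se_LD and 861 ± 60.7 in Se_HD (SD, n = 5).

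Selt (ENSMUSG00000075700, chr3:58380558-58397055, plus strand), a thioredoxin-like membrane protein that is needed early in development and is prominent in neuroendocrine cells, also had its highest mean in HD. It ranged from 3483 to 4069 normalized counts in Ctr (mean 3672 ± 246, SD, n = 5) and from 3334 to 4534 in HD (mean 4071 ± 476, SD, n = 5). The log2 fold change was 0.14 (95% confidence interval -0.08 to 0.37, exact permutation p = 0.151). Means of Selt were 3672 ± 246 in Ctr, 3825 ± 535 in LD, 4071 ± 476 in HD, 3633 ± 103 in Se_Ctr, 3548 ± 245 in Se_LD and 3835 ± 273 in Se_HD (SD, n = 5). Transcripts of Selk and Selt have close copies elsewhere in the genome, with 9 and 7 matches of at least 90% identity over at least 75 bases. These matches covered 67.1% and 77.9% of the transcript, with identities of at most 96.9% and 98.7%. The counts of Selk and Selt may thus depend on how reads with several matches were treated, which was not tested.

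Sepn1 (ENSMUSG00000050989, chr4:134093807-134108081, minus strand), which senses calcium in the endoplasmic reticulum and whose loss causes a congenital muscle disease, ranged from 164 to 208 normalized counts in Ctr and from 144 to 181 in LD. Its value in LD compared with Ctr was -0.21 on the log2 scale (95% confidence interval -0.48 to 0.05), with an exact permutation p of 0.0635. In HD it was -0.08 (95% confidence interval -0.34 to 0.19). With the microglial and astrocyte scores as covariates it was -0.45 and was called without an adjusted p under 0.05, as were HD averaged over the diets at -0.26 and the interaction of selenium and HD at 0.45. Means of Sepn1 were 187 ± 20 in Ctr, 161 ± 16.8 in LD, 178 ± 27.3 in HD, 172 ± 12.9 in Se_Ctr, 173 ± 14 in Se_LD and 174 ± 30.2 in Se_HD (SD, n = 5). No copy of Sepn1, Sepw1 or Selm elsewhere in the genome passed the same limits. Selo had 4 such matches that covered 35.8% of its transcript, and Sep15 had 1 that covered 17.6%.

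Selo (ENSMUSG00000035757, chr15:88919514-88930770, plus strand) had group means of 63.6 to 69.1 normalized counts, and its log2 fold changes lay between -0.09 and 0.12 in the 9 comparisons of 2 groups. Means of Selo were 67.7 ± 12.9 in Ctr, 64.7 ± 9.95 in LD, 63.9 ± 7.99 in HD, 63.6 ± 11.3 in Se_Ctr, 69.1 ± 10.4 in Se_LD and 67.3 ± 8.03 in Se_HD (SD, n = 5). The 95% confidence interval in HD compared with Ctr ran from -0.43 to 0.29. Its exons share 998 bases (26.7%) with Tubgcp6 on the other strand, a gene with a mean of 261 normalized counts, and since the strand setting of the counting is not given in the sources used here, reads from there may be counted for either gene.

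**Figure D4:**
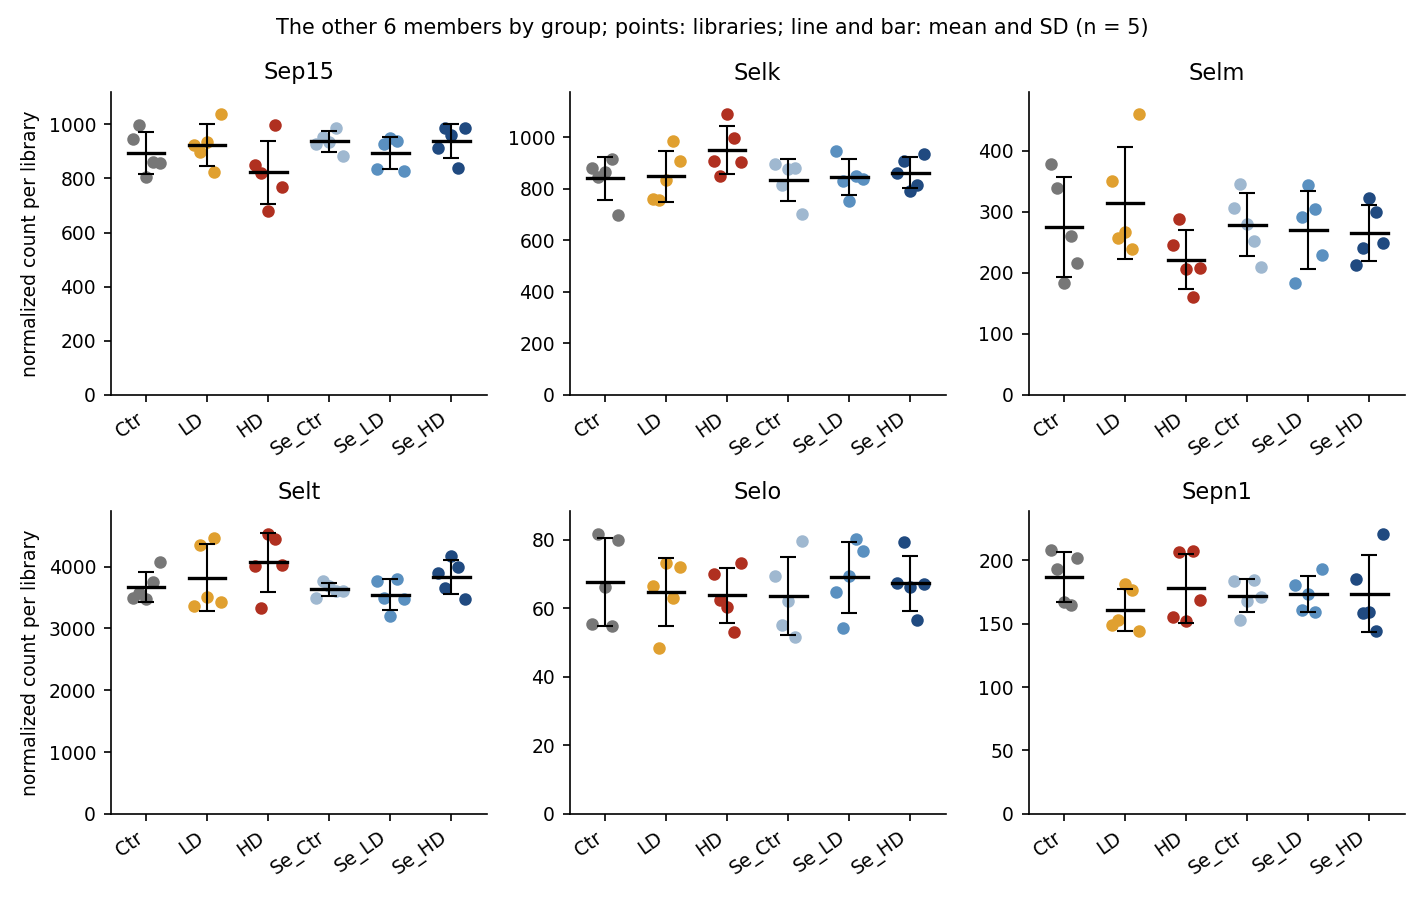
Normalized counts of Sep15, Selk, Selm, Selt, Selo and Sepn1 in each library (points) of the 6 groups, with the mean (line) and SD (bar) of 5 libraries, on axes that start at 0. The groups overlap in every panel, with the widest spread relative to the mean in Selm.

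With edgeR and with DESeq2 the calls for the 7 members were those of limma in every comparison. In the order of the group means of the 6 members other than Sepw1, neighbours had exact permutation p-values of at least 0.127. As a list, the members did not move one way. In HD compared with Ctr 5 of the 7 had a negative and 2 a positive log2 fold change, with a median of -0.08 beside 0.01 over all genes. In Se_HD compared with HD 4 were positive and 3 negative, with a median of 0.08 beside -0.01. After subtraction of the group means, the 21 pairs of members had Pearson correlations over the 30 libraries between -0.45 for Selm and Selt and 0.59 for Sepw1 and Selk, with a median of -0.05. All libraries share 1 scaling and are of 1 tissue, so these are descriptions.

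The genes most like each member over the 30 libraries, by the Pearson correlation of log2 values after subtraction of the group means among the 9272 genes that averaged 100 normalized counts or more, were Mtch1 and Nap1l4 for Sepw1 (r = 0.90 and 0.89, Spearman's rho 0.67 and 0.65), Mapkapk2 and Tspan3 for Sep15 (0.87 and 0.80), and Eef1b2 and Gas5 for Selk (both 0.83). For Selm they were Akt1s1 and Adprh (0.91 and 0.90), and for Selt Naa50 and Impad1 (0.95 and 0.91). The low-level members had weaker likeness, at 0.63 and 0.62 for Selo (Asb1 and Mamld1) and 0.66 and 0.64 for Sepn1 (Bnip2 and Ssh3).

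Of the other selenoprotein genes, 15 of 17 listed were in the table. In HD compared with Ctr 1 of the 15 was called higher and 1 lower, beside 5.08% and 3.26% of all genes, and the median of the 15 was 0.04 on the log2 scale. The lower gene was Selh, which encodes a nuclear protein with the same redox motif as Sepw1. Its Ctr libraries had 60.4, 67.8, 44.2, 47.2 and 64.2 normalized counts and its HD libraries 37.0, 54.2, 20.2, 32.6 and 26.2, with 4 of 5 HD libraries below every Ctr library. Selh fell by 0.78 on the log2 scale (SE 0.28, limma, adjusted p = 0.380).

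In Se_HD, whose libraries had 39.3, 49.6, 63.6, 39.7 and 50.1, Selh was higher than in HD by 0.55 (limma, adjusted p = 0.566). Gpx1, the cytosolic glutathione peroxidase, had a log2 fold change of -0.49 in HD compared with Ctr (limma, adjusted p = 0.609, not called) and of 0.45 in Se_HD compared with HD (limma, adjusted p = 0.576, called). Selh and Gpx1 were the 2 of 15 called in the second comparison, beside 8.38% of all genes. Both comparisons share the HD libraries, so the opposite signs in them are not independent of each other. The interaction of selenium and HD was 0.72 for Selh (SE 0.36) and 0.57 for Gpx1 (SE 0.30), neither of which was called.

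The gene called higher in HD was Dio3, which encodes the deiodinase that inactivates thyroid hormone, at a mean of 108 normalized counts in HD and 30.2 in Ctr (log2 fold change 1.94, SE 0.53, limma, adjusted p = 0.175). Its libraries spread from 12.3 to 81.7 in Ctr and from 38.4 to 205 in HD and thus overlapped. Gpx4, which protects membranes from lipid peroxidation, had a value of 0.20 in HD compared with Ctr (limma, adjusted p = 0.791). Averaged over the doses of mercury, Txnrd1, the cytosolic thioredoxin reductase, was higher with selenium by 0.13 (limma, adjusted p = 0.752), the 1 of 15 called beside 6.62% of all genes. Dio2, the activating deiodinase, and Gpx4 had values of -0.12 (limma, adjusted p = 0.827) and -0.09 (limma, adjusted p = 0.854) in that average.

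**Figure D5:**
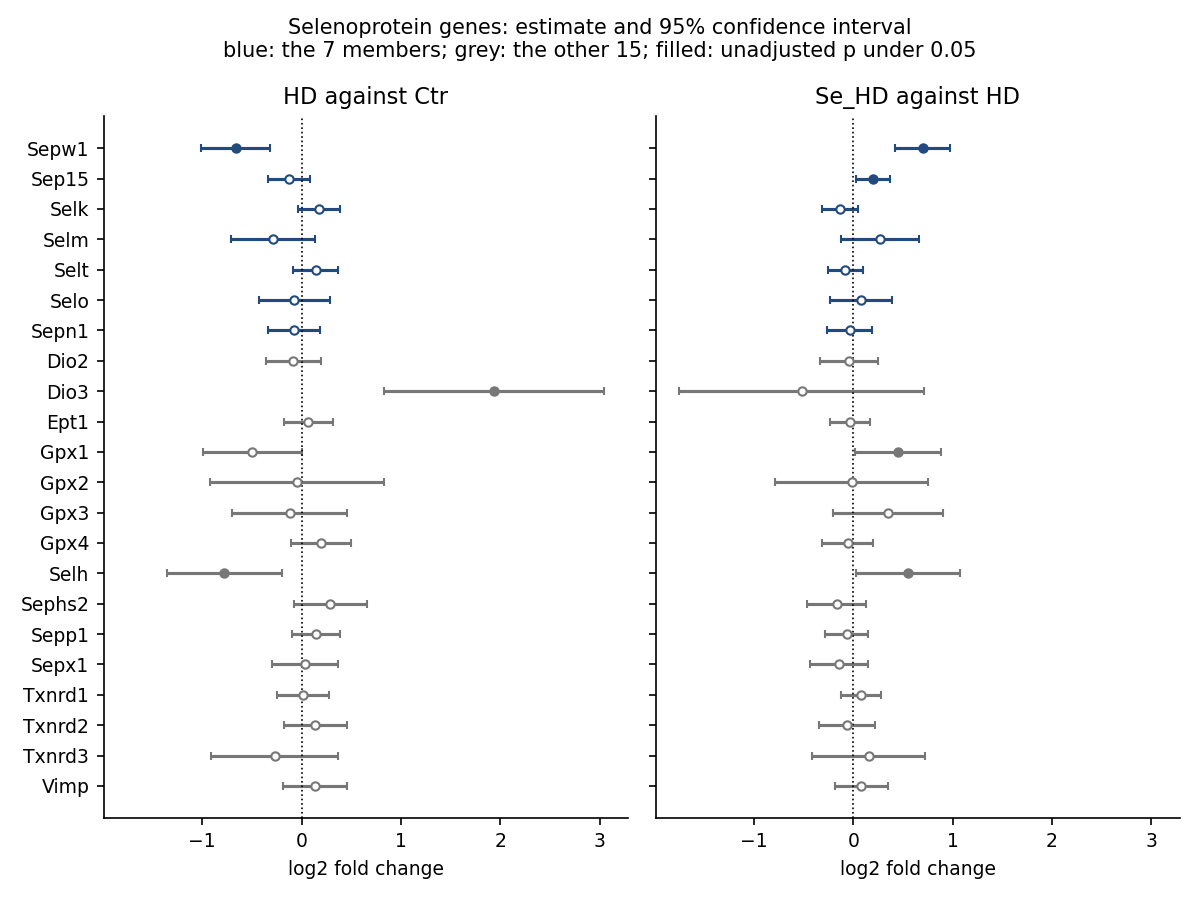
Log2 fold change with the 95% confidence interval for the 7 members (blue) and 15 other selenoprotein genes (grey) in HD compared with Ctr and in Se_HD compared with HD, which share the HD libraries; filled points have an unadjusted p under 0.05 in limma. Sepw1 and Selh are filled on both sides, with -0.66 and -0.78 on the left and 0.70 and 0.55 on the right.

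Genes of selenium delivery and selenocysteine incorporation, all 13 listed, held no call in HD compared with Ctr, beside 8.34% of all genes, with log2 fold changes from -0.16 to 0.58 and a median of -0.03. The lowest p there was that of Lrp8, the receptor by which neurons take up selenoprotein P (0.22, limma, adjusted p = 0.712), followed by Ncl (0.22, limma, adjusted p = 0.795) and Sepsecs (-0.16, limma, adjusted p = 0.818). Averaged over the doses of mercury, Eefsec, the elongation factor that carries the selenocysteine tRNA, was higher with selenium by 0.23 (limma, adjusted p = 0.723). Ncl, encoding nucleolin, which binds SECIS elements, fell by 0.21 (limma, adjusted p = 0.691). Of the 13 genes, Eefsec was the 1 called higher and Ncl the 1 called lower, beside 2.82% and 3.8% of all genes. Secisbp2, encoding the main SECIS-binding protein, had a value of 0.14 (limma, adjusted p = 0.794).

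Of 18 genes whose products are known to bind the members or their close partners, 2 were called higher and 2 lower in HD compared with Ctr, beside 5.08% and 3.26% of all genes, with a median of 0.00 over the list when rounded. Prdx1, encoding a peroxiredoxin that takes part in the same thiol redox pathways, rose by 0.36 (SE 0.12, limma, adjusted p = 0.292). Vcp, the ATPase that pulls misfolded proteins out of the endoplasmic reticulum and works with Selk, rose by 0.21 (limma, adjusted p = 0.529). Itpr3, a calcium channel of the endoplasmic reticulum, fell by 0.47 (limma, adjusted p = 0.538). The other gene called lower, named after its value was seen, was Itpr1, the main such channel of neurons (-0.33, limma, adjusted p = 0.554). For Uggt2, a glucosyltransferase of the kind that Sep15 binds, the value was -0.19 (limma, adjusted p = 0.773). None of the 18 was called for selenium averaged over the doses, in which Prdx1 (-0.10), Uggt2 (0.11) and Ywhab (0.08), a 14-3-3 protein that binds Sepw1, came closest to a call (limma, adjusted p = 0.784 to 0.790).

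In the list of 26 genes of folding and stress of the endoplasmic reticulum, 19 had a positive and 7 a negative log2 fold change in HD compared with Ctr, with a median of 0.12 beside 0.01 over all genes, and 1 was called, beside 8.34% of all genes. In HD compared with LD 3 were called higher and 1 lower, beside 4.45% and 2.51% of all genes. Within the selenium groups 4 of the 26 were called higher in Se_HD compared with Se_Ctr (2.43% of all genes), with 21 positive and a median of 0.12, and 4 in Se_HD compared with Se_LD (2.36% of all genes), with none lower in either. For HD averaged over both diets 23 were positive with a median of 0.14, and 3 were called higher, beside 5.28% of all genes. Other comparisons went the other way. In Se_Ctr compared with Ctr 22 were negative and 4 positive, with a median of -0.11 and no call, beside 4% of all genes. In LD compared with Ctr 18 were negative and 8 positive (median -0.06), and in Se_HD compared with HD 19 and 7 (median -0.07). In the last of these 2 were called lower and 1 higher, beside 5.28% and 3.1% of all genes. No gene of this list had an adjusted p under 0.05 in these comparisons (limma). The gene called in HD compared with Ctr was Pdia4, a protein disulfide isomerase, which rose by 0.38 (SE 0.17, limma, adjusted p = 0.529). Pdia3, another isomerase, and Manf, a secreted stress protein, had values of 0.24 (limma, adjusted p = 0.647) and 0.31 (limma, adjusted p = 0.741). Averaged over the doses of mercury, Pdia3 fell by 0.25 with selenium (limma, adjusted p = 0.651) and Calr, the calcium-binding chaperone calreticulin, by 0.30 (limma, adjusted p = 0.675). Ero1l, the oxidase that recharges protein disulfide isomerases, was higher by 0.13 (limma, adjusted p = 0.750). These were the 2 genes of the 26 called lower and the 1 called higher in that average, beside 3.8% and 2.82% of all genes. In it 19 of the 26 were negative and 7 positive. The lowest adjusted p in the 4 lists over all comparisons was 0.0881 (limma), for a gene of this last list in HD averaged over both diets.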

How the data were processed

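Per the labels and the study's methods, the authors prepared stranded mRNA libraries, trimmed the single-end reads with Trim Galore 0.4.2, mapped them with HISAT2 to the NCBIM37 build, counted them per gene with featureCounts and normalized the counts with DESeq2. The handling of reads with several matches and the strand setting of the counting are not given in the sources used here. The deposited table holds a signal value per gene and library, the authors' normalized count. Dividing each value by the smallest step of its library gave whole reads, within 0.01, for 100% of the values, so the read counts were recovered, and the implied size factors equalled the median of ratios. No column was left without a sample. Groups were taken from the treatment label.

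Log2(normalized count + 1) was tested with limma with a trend of the variance (version 3.58.1, R 4.3.3). Fold changes are on this scale. Comparisons of Ctr, LD and HD used their 15 libraries, those within the selenium groups the other 15, and those across diets all 30. Genes needed a sum of at least 10. A call is an unadjusted p under 0.05 of the comparison, with the Benjamini-Hochberg adjusted p over all genes beside it. The study used the same threshold, but in an ANOVA of its 3 groups followed by planned contrasts. Calls here did not require an ANOVA first, so their numbers are not those of the study. Single members were also compared by exact two-sided permutation of 5 against 5 libraries, on the mean log2 value. Per the study's methods its mice, which are those of Ctr, LD and HD, were housed singly. Whether mice shared a litter, or a cage in the selenium groups, is not given in the sources used here. The p-values measure the spread between these samples. Genes were named by rule: all members; of the other lists those with an adjusted p under 0.05 and the 3 with the lowest p in HD compared with Ctr and in selenium averaged over the doses; and the 2 genes most alike each member. Marker scores are means of log2 values per cell type, set to 0 in Ctr. Alternatives were another pseudocount (0.1 or 10), filter, scaling, test (edgeR 4.0.16 or DESeq2 1.42.0 on the recovered reads), set of libraries, covariate, and leaving out each library. The members and the gene lists were chosen with earlier results of these data known. On counts simulated for HD compared with Ctr with 19809 genes tested, limma recovered 52 of 100 genes changed by 0.66 and 91 of 100 changed by 1.0 on the log2 scale at an adjusted p under 0.05, with 12 false calls. Copies of the transcripts were sought with blastn (2.17.0+).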

Additional observations from a re-analysis of the deposited data

Results flagged for a closer look

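Sepw1 in Se_HD library 24 stood apart from the other 4 libraries of its group, at 5423 normalized counts with the nearest at 5145. The gap was 0.755 of the range of the group, above Dixon's limit of 0.71 for 5 samples. Over the 42 groups of 5 values that the 7 members give, this was the 1 such library, and chance gives about 2.1. The other 4 libraries of Se_HD also lay above every HD library.

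The fall of Sepw1 at the high dose of mercury differed between the diets, with an interaction of 0.46 on the log2 scale (limma, called at the unadjusted threshold, adjusted p = 0.997). It was -0.66 without selenium, with 4 of 5 HD libraries below every Ctr library, and -0.21 with selenium, with 4 of 5 Se_HD libraries below every Se_Ctr library.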

How the results depend on the processing

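Over 14 comparisons the 7 members gave 98 log2 fold changes, of which 9 were called. None of the 9 changed sign in any alternative, and 4 were called in every one: Sepw1 in HD compared with LD, in Se_HD compared with HD, for selenium averaged over the doses and for HD averaged over the diets. All 4 include the same HD libraries, so they are not independent of each other. Of the 89 others, 37 changed sign in some alternative and 15 were called in some. The number of members called kept within 1.5 times its main value in 192 of 208 counts under alternatives that did not leave out a library. With the microglial and astrocyte scores as covariates, 2 members (Sep15 and Sepn1, not Sepw1) were called in HD compared with Ctr (3.84% of all genes), 1 (Selt) in Se_HD compared with Se_LD (4.03%), 2 for selenium averaged over the doses (4.58%), 3 for HD averaged over the diets (5.57%), 2 (Sep15 and Sepn1, not Sepw1) in the interaction of selenium and HD (4.8%) and 0 in the F test (3.42%). With the neuronal score, added after the data were seen, these were 2 for selenium averaged over the doses (7.24% of all genes), 2 for HD averaged over the diets (6.61%) and 0 in the interaction (5.06%). One member was called in HD compared with LD without the trend of the variance or with the choroid plexus score (6.77% and 6.55% of all genes), 1 in Se_HD compared with Se_LD with that score (8.48%), 2 for HD averaged over the diets with quantile normalization (9.46%), 0 in Se_HD compared with Se_Ctr with all 30 libraries in the fit (2.69%), and 1 each in Se_Ctr compared with Ctr and in Se_HD compared with HD with only those 2 groups in the fit (4.1% and 7.31%). The cause was not tested.

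With each library left out in turn, the members called were 1 to 2 in HD compared with Ctr, 1 to 3 in HD compared with LD, 0 to 1 in Se_HD compared with Se_LD, 0 to 1 in Se_Ctr compared with Ctr, 1 to 2 in Se_HD compared with HD, 1 to 2 for selenium averaged over the doses, 1 to 3 for HD averaged over the diets, 0 to 1 in each interaction and 1 to 2 in the F test. The libraries behind this were Ctr library 13 (Selm in HD compared with Ctr), LD library 20 (Selk in HD compared with LD), LD library 8 (Sepw1 in the interaction of selenium and LD), HD library 9 (Selk and Selt for HD averaged over the diets), HD library 21 (Sep15 in HD compared with LD, for selenium and in the F test), Se_HD library 30 (Selt in Se_HD compared with Se_LD) and Ctr library 1 (Sepw1 in Se_Ctr compared with Ctr), beside those named with Sepw1, Sep15 and Selm above. Sepw1 in HD compared with Ctr ranged from -0.79 to -0.56 and in Se_HD compared with HD from 0.59 to 0.83. Its adjusted p in HD compared with Ctr was 0.00870 with all 30 libraries in the fit, 0.0271 with DESeq2, 0.115 with edgeR and 0.299 without the trend, and over all alternatives it ranged from 0.00870 to 1.0 when rounded. The labels give no replicate number that pairs libraries across groups, and a fit with sets of 6 consecutive library numbers as a block changed no call of a member. With it the adjusted p of Sepw1 was 0.195 in HD compared with Ctr, 0.0244 in Se_HD compared with HD, 0.0657 for HD averaged over the diets and 0.00455 in the F test.

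With 5 libraries a group, the 95% confidence intervals in HD compared with Ctr of the members with the fewest reads, Selo and Sepn1, were -0.43 to 0.29 and -0.34 to 0.19 on the log2 scale. The widest interval of the members was that of Selm, at -0.71 to 0.13. Differences within these intervals are left undetected. The copies of Selk, Selt, Selo and Sep15 and the overlap of Selo with Tubgcp6 may bear on their levels, which was not tested. The amount of selenium is not given in the sources used here.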
